A study of Mus musculus with 8 samples.

Results

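Aminoacyl-tRNA synthetases load each tRNA with its amino acid. The 36 genes described here were 20 of cytosolic enzymes, with symbols such as Eprs, and 16 of mitochondrial enzymes, whose symbols end in 2, out of 27179 genes in the table. They were taken by gene symbol. The family was chosen by the measured RPKM of Eprs, which was strongly higher in the lamina propria, so the differences between tissues are given below as descriptions with no test of a member. RNA was measured in LTi (lymphoid tissue inducer) cells of C57BL/6 mice, a kind of innate lymphocyte that starts the formation of lymphoid organs. Cells were taken from the lamina propria (LP) of the small intestine and from Peyer's patches (PP), the lymphoid follicles of the gut wall, with a gate for CD127 and CCR6 on lineage-negative cells without KLRG1, NK1.1 and NKp46. The 4 groups of 2 libraries each were LP of Tcf7fl/fl mice with Cre (labelled KO below), LP of Tcf7+/+ mice (WT), PP of Tcf7fl/fl mice with Cre and PP of Tcf7+/+ mice. Tcf7 encodes TCF-1, a transcription factor of the Wnt pathway. Cre was not specific to LTi cells, so a deletion is not limited to them. The WT mice were labelled with neither floxed alleles nor Cre. The labels do not say whether the 2 libraries of a group came from separate animals, so the p-values measure only the spread between these libraries.

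Each synthetase joins an amino acid to its tRNA at the cost of ATP, and the charged tRNA then serves the ribosome. Cytosolic and mitochondrial translation use separate enzymes for most amino acids, both encoded in the nucleus. Gars and Kars each serve both compartments. Eprs is the only fused enzyme of the family in animals and charges both glutamate and proline tRNAs. It sits with Iars, Lars, Mars, Qars, Rars, Kars and Dars in the multisynthetase complex, on the scaffold proteins encoded by Aimp1, Aimp2 and Eef1e1. When uncharged tRNA builds up, the kinase GCN2 slows translation and raises ATF4, a factor whose known targets include many cytosolic synthetase genes.

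Values are RPKM, reads scaled to gene length and library size, so that levels of different genes are compared per length. Differences are on the scale of log2(RPKM + 1). The depth, estimated from the lowest values, was 30.1 to 36.04 M reads per library, and 6365 to 8433 genes per library reached 1 RPKM. Tcf7 itself was at 237 and 215 RPKM in LP labelled KO and 229 and 246 RPKM in WT LP, and at 355 and 337 RPKM in PP labelled KO and 243 and 85.4 RPKM in WT PP. The LP libraries overlapped, and in PP both libraries labelled KO were above both WT libraries. A value over the whole gene does not separate the floxed part, so the values do not show the deletion and the genotype is given by its label throughout. Of 20 LTi genes, 17 to 19 reached 1 RPKM in every library. B and plasma cell markers summed to 24525 to 38789 RPKM in LP and 7303 to 13888 RPKM in PP, with 11 to 12 of 19 genes at 1 RPKM in LP libraries and 12 to 15 in PP libraries. Pax5, a marker that defines B cells, was listed at 0 in all 8 libraries. In bulk RNA, fewer cells of a type and less RNA per cell cannot be told apart.

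In each library, a larger share of the cytosolic than of the mitochondrial synthetase genes reached 1 RPKM. Between 18 and 20 of the 20 cytosolic genes reached 1 RPKM in each LP library, and 14 to 18 in each PP library. Of the 16 mitochondrial genes, 4 to 9 did so in each LP library and 6 to 10 in each PP library. All 8 libraries reached 1 RPKM for 9 cytosolic genes and for 2 mitochondrial ones, Lars2 and Iars2. Of the 36 genes, 11 overlap a protein-coding gene, 10 of them one on the opposite strand, and their values are uncertain because no source used here says whether reads were counted by strand. Among the genes named below these are Aars, Mars, Wars, Farsb, Yars, Hars, Hars2, Iars2, Cars2, Ears2 and Fars2. The median member of the cytosolic list lay at 18.4 to 36.5 RPKM per library, and that of the mitochondrial list at 0.0781 to 4.74 RPKM.

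**Figure D1:**
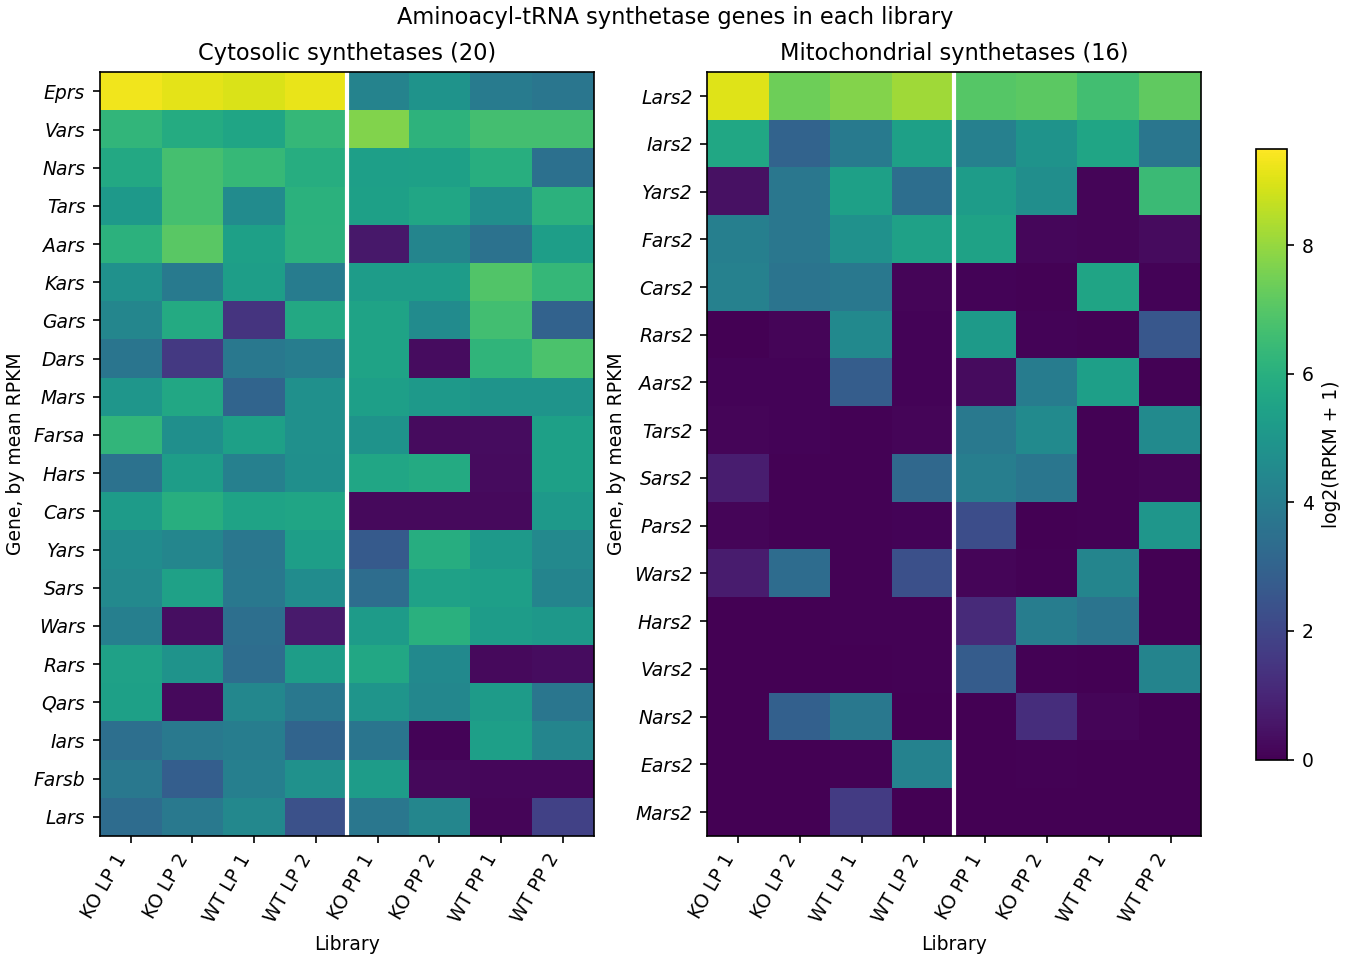
Level of each of the 20 cytosolic and 16 mitochondrial synthetase genes (rows, ordered by mean RPKM) in the 8 libraries (columns), as log2(RPKM + 1) on a colour scale. Eprs is the brightest cytosolic row in the 4 LP libraries, Lars2 the brightest mitochondrial row, and dark cells beside bright ones within a group are genes found in 1 of its 2 libraries.

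Eprs (Entrez Gene 107508) lies on chromosome 1 of GRCm38, at 185363044 to 185428360 on the plus strand by GENCODE vM21, where no other annotated gene overlaps it. The gene record of RefSeq begins upstream, at 185361417. Because Eprs stands apart from the family, the 250 bases before its start site are shown, as RefSeq gives them for GRCm38.p6 at chr1:185362794-185363043, plus strand. The capitals mark TGACGT or its reverse complement, the core of sites known for CREB and ATF factors. This motif was chosen after reading the sequence, and its copies begin 159 and 9 bases before the start.
Eprs promoter: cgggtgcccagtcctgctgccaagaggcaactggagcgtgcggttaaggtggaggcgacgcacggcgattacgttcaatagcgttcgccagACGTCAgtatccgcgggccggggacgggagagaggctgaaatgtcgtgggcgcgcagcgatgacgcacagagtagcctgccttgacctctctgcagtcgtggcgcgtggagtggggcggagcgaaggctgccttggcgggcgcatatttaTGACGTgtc
On either strand, TGACGT lay in the 250 bases of 4 of 28 member promoters (14.3%), those of Eprs, Aars2 and Wars2. It lay in 2125 of 32851 RefSeq promoters in all (6.47%). The member count includes Eprs, whose own sequence chose the motif. It also counts promoters and not genes, so nothing is read from the member share.

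Eprs, the glutamyl-prolyl-tRNA synthetase, stood at 632 and 548 RPKM in LP labelled KO and 499.7 and 586 RPKM in WT LP. In PP it stood at 17.98 and 28.4 RPKM in libraries labelled KO and 14.6 and 12.3 RPKM in WT libraries. Every LP library was far above every PP library, and within a tissue the libraries lay close together. Eprs averaged 566 ± 56.2 RPKM in LP and 18.3 ± 7.10 RPKM in PP (SD, n = 4 each), a ratio of 30.9. The log2 difference between LP and PP was 4.64 among libraries labelled KO, 5.23 among WT libraries and 4.94 on average. These values chose the family and support nothing further. Of the 10541 genes kept, 689 were higher in LP with no overlap, and Eprs was number 54 of them by log2 difference.

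By these same values, which chose the family, Eprs held a different place within it in LP than in PP. It was number 1 of the 36 genes in every LP library and between 12 and 20 in PP libraries. Among all genes it held places 114 to 166 in LP and 3245 to 4786 in PP. It made up 41.8 to 51.3% of the summed cytosolic RPKM in LP and 1.81 to 4.87% in PP. The 20 cytosolic genes summed to 1188 ± 147 RPKM in LP and 682 ± 71.2 RPKM in PP (SD, n = 4 each). Without Eprs the sums were 621 ± 118 RPKM in LP and 664 ± 76.7 RPKM in PP, which differ by less than their spread.

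The other enzymes of the multisynthetase complex did not follow Eprs. Eprs was 23.7 and 41.4 times the median of the other 7 enzymes in LP labelled KO and 32.3 and 39.6 times in WT LP. The same ratio was 0.491 and 1.42 in PP labelled KO and 0.410 and 0.641 in WT PP. Of these 7 enzymes, none had LP and PP libraries without overlap. Kars, the lysyl enzyme, averaged 23.5 ± 11.8 RPKM in LP and 67.997 ± 39.7 RPKM in PP, and Dars, the aspartyl enzyme, averaged 10.5 ± 5.83 RPKM in LP and 57.6 ± 47.2 RPKM in PP (SD, n = 4 each). The scaffold gene Aimp1 was at 34.8 and 0.340 RPKM in LP labelled KO, 15.2 and 38.6 RPKM in WT LP, 20.4 and 11.6 RPKM in PP labelled KO and 134.7 and 26.9 RPKM in WT PP. Aimp2 and Eef1e1, which encode the other scaffold proteins, each had 1 library under 1 RPKM and overlapping tissues.

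**Figure D2:**
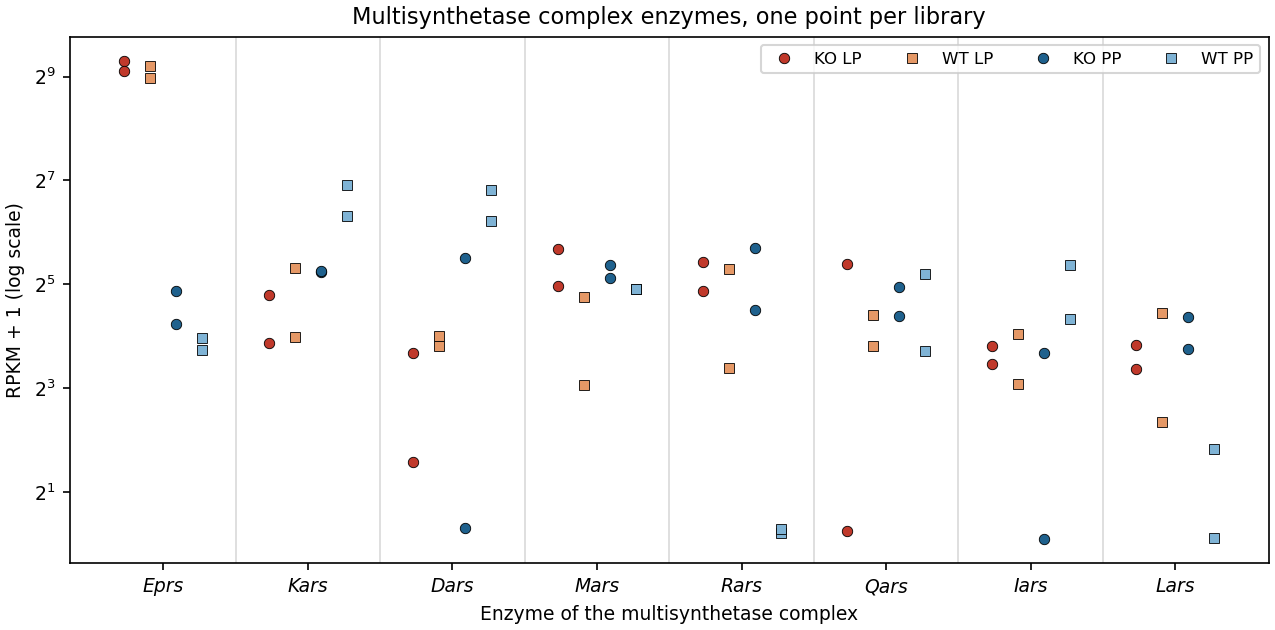
RPKM + 1 on a log axis for the 8 enzymes of the multisynthetase complex (x axis), 1 point per library, with LP left of PP and libraries labelled KO (circles) left of WT libraries (squares). Eprs alone has its 4 LP points far above its 4 PP points, and the 7 other enzymes have overlapping tissues.

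The genes on either side of Eprs were read as neighbours on chromosome 1. Bpnt1, which encodes a bisphosphate nucleotidase and ends 3640 bases before Eprs on the same strand by the gene records of RefSeq, was at 232 and 136 RPKM in LP labelled KO and 254 and 291 RPKM in WT LP. In PP, Bpnt1 was at 7.35 and 1.05 RPKM in libraries labelled KO and 54.0 and 0.970 RPKM in WT libraries. The LP and PP libraries of Bpnt1 did not overlap either. The next gene after Eprs, the unnamed transcript 9630028B13Rik, was listed at 0 in 7 libraries and at 0.00668 RPKM in 1. Iars2, the mitochondrial isoleucyl enzyme, lies before them on the same chromosome and averaged 28.0 ± 20.5 RPKM in LP and 26.1 ± 15.4 RPKM in PP (SD, n = 4 each).

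Among the 34 kept members, 4 were higher in LP with no overlap between the 4 LP and the 4 PP libraries, Eprs, Cars, Aars and Lars2, and 1 was lower, Wars. Over all genes kept, 13.6% had no overlap in either direction, 6.54% higher and 7.05% lower. The tissue contrast was used to pick the family, so nothing is read from this count. Cars, the cysteinyl enzyme, was at 36.3 and 61.8 RPKM in LP labelled KO and 44.4 and 46.5 RPKM in WT LP, against 0.185 and 0.185 RPKM in PP labelled KO and 0.167 and 33.5 RPKM in WT PP. Its LP libraries lay close together, and 3 of its PP libraries were near 0 while the other reached 33.5 RPKM. Aars, the alanyl enzyme, was at 67.1 and 133 RPKM in LP labelled KO and 41.5 and 68.3 RPKM in WT LP, against 0.534 and 19.2 RPKM in PP labelled KO and 10.9 and 38.9 RPKM in WT PP. The lowest LP library and the highest PP library of Aars were thus close neighbours. In GENCODE vM21, Exosc6 overlaps Aars on the same strand by 1326 bases, while in RefSeq it begins 770 bases after Aars. The annotation behind the values is not named, so the value of Aars is uncertain to that extent. Wars, the tryptophanyl enzyme, went the other way, with 16.2 and 0.273 RPKM in LP labelled KO and 9.96 and 0.611 RPKM in WT LP, against 36.4 and 63.8 RPKM in PP labelled KO and 37.5 and 32.6 RPKM in WT PP.

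The average log2 difference between LP and PP had a median of 0.16 over the 20 cytosolic genes, -0.84 over the 14 mitochondrial genes kept and -0.10 over all genes kept. It was above 0 for 11 of the 20 cytosolic genes, 5 of the 14 mitochondrial genes and 47.0% of all genes. The 3 most abundant cytosolic genes after Eprs were Vars, Nars and Tars. Tars, the threonyl enzyme, was at 33.3 and 102 RPKM in LP labelled KO and 23.3 and 66.0 RPKM in WT LP, against 41.2 and 48.1 RPKM in PP labelled KO and 24.9 and 67.8 RPKM in WT PP. Vars, the valyl enzyme, was at 75.6 and 56.4 RPKM in LP labelled KO and 47.1 and 79.0 RPKM in WT LP, against 207 and 69.7 RPKM in PP labelled KO and 99.5 and 101 RPKM in WT PP. Nars, the asparaginyl enzyme, was at 52.2 and 102 RPKM in LP labelled KO and 81.5 and 60.04 RPKM in WT LP, against 39.8 and 41.2 RPKM in PP labelled KO and 60.9 and 10.3 RPKM in WT PP. Tissues overlapped for all 3 of these genes. They also overlapped for the other cytosolic genes not yet given. These were Gars, Hars, Yars, Sars and Qars, which charge the tRNAs of glycine, histidine, tyrosine, serine and glutamine, Farsa and Farsb of the phenylalanyl enzyme, and Iars and Lars. Their means over the 8 libraries ran between 10.3 RPKM for Lars and 37.6 RPKM for Gars, and Farsa averaged 42.1 ± 23.5 RPKM in LP and 17.5 ± 20.5 RPKM in PP (SD, n = 4 each).

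**Figure D3:**
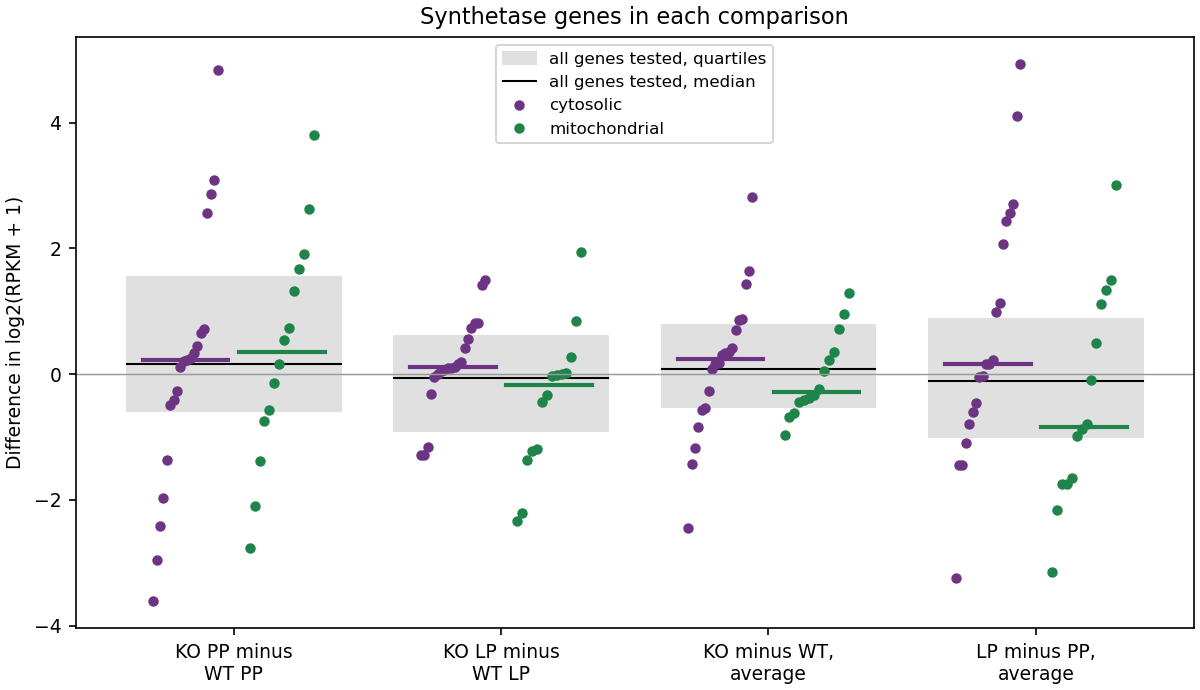
Difference in log2(RPKM + 1) of each kept cytosolic (left, purple) and mitochondrial (right, green) synthetase gene in 4 comparisons, with short lines at the medians of each list and the median and quartiles of all 10541 genes behind them. Both lists spread over the quartiles of all genes and past them in every comparison, and the top cytosolic point of the last comparison is Eprs at 4.94.

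Lars2, the mitochondrial leucyl enzyme, on chromosome 9 at 123366927 to 123462666 of GRCm38, was the most abundant mitochondrial synthetase in every library. It was at 521 and 169 RPKM in LP labelled KO and 211 and 284 RPKM in WT LP, against 127 and 136 RPKM in PP labelled KO and 96.6 and 143 RPKM in WT PP. All LP libraries lay above all PP libraries, with averages of 296 ± 157 RPKM in LP and 126 ± 20.5 RPKM in PP (SD, n = 4 each). The 521 RPKM came from 1 library, which was well above the other 3 LP libraries. Lars2 made up 60.4 to 86.1% of the summed mitochondrial synthetase RPKM in LP and 37.0 to 53.1% in PP. Without Lars2, the other 15 mitochondrial genes summed to 102 ± 36.1 RPKM in LP and 159 ± 26.1 RPKM in PP (SD, n = 4 each).

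The remaining mitochondrial enzymes were patchy. Iars2 was found in every library, at 49.1 and 7.15 RPKM in LP labelled KO, 14.2 and 41.6 RPKM in WT LP, 16.8 and 28.6 RPKM in PP labelled KO and 46.8 and 12.4 RPKM in WT PP. Yars2, the tyrosyl enzyme, was at 0.359 and 12.5 RPKM in LP labelled KO, 41.6 and 9.82 RPKM in WT LP, 37.4 and 24.8 RPKM in PP labelled KO and 0.0970 and 87.5 RPKM in WT PP. Cars2, the cysteinyl enzyme, was at 16.8 and 11.6 RPKM in LP labelled KO, 13.1 and 0.0828 RPKM in WT LP, 0.0560 and 0.0269 RPKM in PP labelled KO and 46.1 and 0.0731 RPKM in WT PP. In 2 of the 4 groups, Yars2 and Cars2 were each well found in 1 library and nearly missing in the other. Hars2, Tars2, Pars2 and Vars2, the histidyl, threonyl, prolyl and valyl enzymes, did not exceed 0.107 RPKM in any of the 4 LP libraries, and each reached 1 RPKM in 2 or 3 PP libraries. Ears2 and Mars2 reached 1 RPKM in 1 library each, a WT LP library, and were not kept for the tests. Rars2, Aars2, Wars2 and Nars2 each reached 1 RPKM in 3 libraries.

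A gene was counted as found in 1 library of a pair and missed in the other when it reached 5 RPKM in one and stayed under 1 RPKM in the other. This held for 11 of 80 pairs of a cytosolic gene and a group (13.8%), 22 of 64 for mitochondrial genes (34.4%) and 20.4% over all genes kept. Among genes with a mean of 5 to 100 RPKM it held for 11 of 76 cytosolic pairs (14.5%), 12 of 28 mitochondrial pairs (42.9%) and 22.9% over all genes kept at that level.

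In 14 of 17 pairs of a cytosolic and a mitochondrial enzyme for the same amino acid, the cytosolic gene had the higher mean RPKM, and it was higher in 103 of 136 single comparisons within a library. It was higher in all 8 libraries for Mars, Nars, Tars and Vars and for Eprs against Ears2. The leucyl pair was turned round in all 8 libraries, with Lars at a mean of 10.3 RPKM and Lars2 at 211 RPKM and a median log2 difference of -4.45. The cytosolic isoleucyl gene Iars was above Iars2 in 3 of 8 libraries, with means of 14.7 and 27.1 RPKM. The phenylalanyl enzyme of the cytosol has subunits encoded by Farsa and Farsb, of which Farsa was above Fars2 in 6 of 8 libraries and Farsb in 2.

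**Figure D4:**
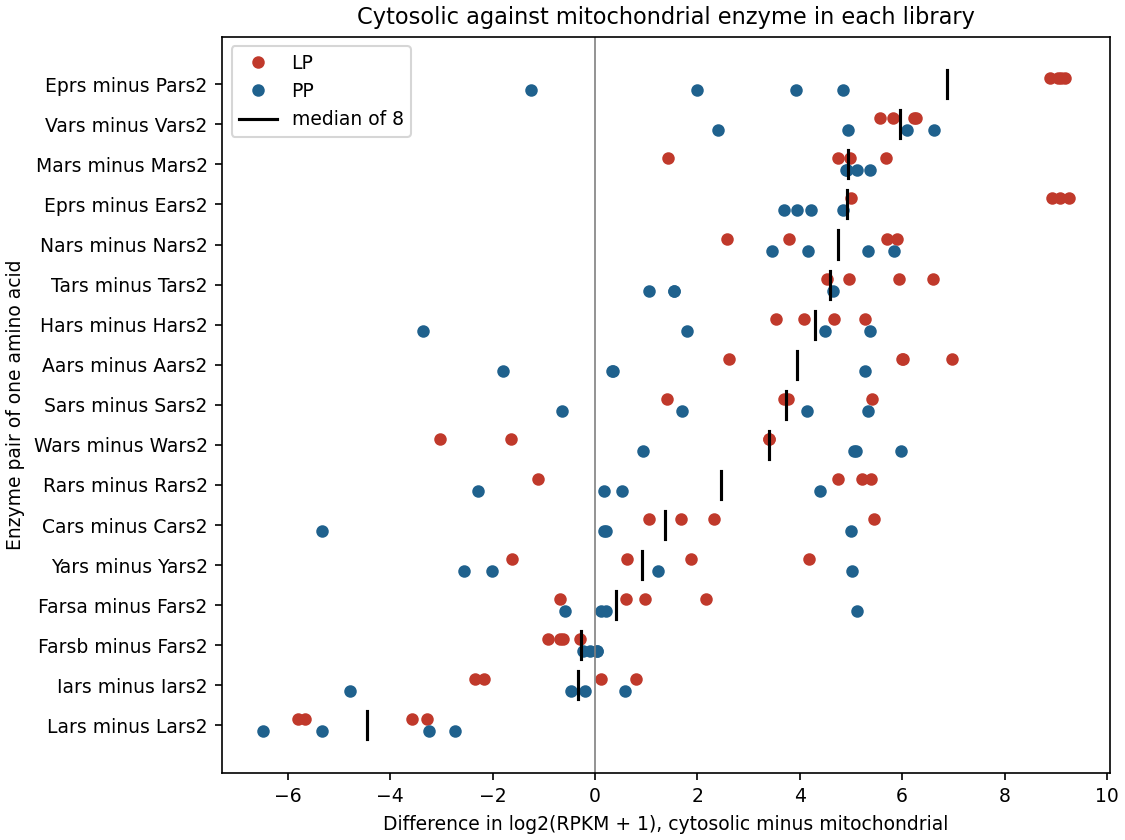
Difference in log2(RPKM + 1) between the cytosolic and the mitochondrial gene for the same amino acid (17 pairs, rows) in each library, with LP points in red above PP points in blue and a line at the median of 8. Most points lie right of 0, the leucyl pair lies left of it in all 8 libraries, and all but 1 LP point of the Eprs pairs lie farthest right.

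Next, the libraries labelled KO were set against WT libraries in each tissue. This compares the genotype labels. It cannot show whether TCF-1 bears on these genes, since the values do not show the deletion. No synthetase gene passed in any of the tests. With limma and Benjamini-Hochberg adjustment over 10541 genes, 0 of 34 kept members passed in PP, where 0.36% of all genes did (0.266% higher and 0.0949% lower), and 2 cytosolic and 1 mitochondrial genes had an unadjusted p under 0.05, against 11.4% of all genes. In LP 0 of 34 members passed, where 0.0285% of all genes did, and 0 members had an unadjusted p under 0.05, against 5.27%. For the average over tissues 0 of 34 passed, where 0.00949% of all genes did, and 1 member had an unadjusted p under 0.05, against 6.81%. The difference between the tissues in the genotype effect passed for 0 of 34 members and 0.0285% of all genes, with 1 cytosolic and 1 mitochondrial gene at an unadjusted p under 0.05, against 8.75%. The standard error of a member within a tissue ranged between 0.41, for Eprs, and 2.13 on the log2 scale.

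Eprs had a log2 difference of 0.71 between PP labelled KO and WT PP (SE 0.41, limma adjusted p = 0.659), with no overlap between its 2 libraries on each side. In LP the difference was 0.12 (SE 0.41, limma adjusted p = 1), with overlap. The average over tissues was 0.42 (SE 0.34, limma adjusted p = 0.837).

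Without overlap in PP were 9 of 20 cytosolic genes, 6 higher and 3 lower in libraries labelled KO, and 2 of 14 mitochondrial genes, 1 higher and 1 lower. Over all genes kept, 37.5% had no overlap, 22.7% higher and 14.8% lower. Rars, the arginyl enzyme, was at 51.2 and 21.6 RPKM in PP labelled KO and at 0.169 and 0.232 RPKM in WT PP. Both WT PP libraries were near 0, while all 4 LP libraries had 9.53 to 42.2 RPKM. Its log2 difference in PP was 4.84 (SE 0.9998, limma adjusted p = 0.109), with the smallest p of any member. The difference between its genotype effects in LP and PP was -4.03 (SE 1.41, limma adjusted p = 0.449).

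Sars2, the mitochondrial seryl enzyme, was at 15.6 and 12.3 RPKM in PP labelled KO and at 0.0269 and 0.106 RPKM in WT PP, a log2 difference of 3.80 (SE 1.20, limma adjusted p = 0.260). In LP it was at 0.709 and 0.0267 RPKM in libraries labelled KO and at 0.0409 and 8.20 RPKM in WT libraries, which overlap. Dars was at 44.6 and 0.238 RPKM in PP labelled KO and at 73.6 and 112 RPKM in WT PP, a log2 difference of -3.61 (SE 1.67, limma adjusted p = 0.508). Without the library labelled KO that had almost no Dars, the difference was -1.01.

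The mitochondrially encoded genes were a measured difference between the PP libraries. They made up 13.4 and 13.6% of summed RPKM in PP labelled KO and 3.06 and 3.28% in WT PP, and 9 of their 13 genes passed as higher (limma adjusted p under 0.05). Of the nuclear genes of mitochondrial synthetases, 0 of 14 passed in the same comparison. The mitochondrially encoded genes had a median log2 difference of 1.99, while Sars2 did not pass at 3.80 (SE 1.20). The count thus cannot show whether the nuclear genes shared such a shift. Epithelial cell markers also differed in level between these groups, with sums of 810 and 929 RPKM in PP labelled KO and 382 and 193 RPKM in WT PP. Of the 20 epithelial genes, 13 and 16 reached 1 RPKM in PP labelled KO and 8 and 5 in WT PP. Their median log2 difference was 2.12, with 15 of 18 kept genes above 0 and 0 of 18 passing by limma. Epcam, a defining marker, was at 0.364 and 29.4 RPKM in PP labelled KO and 52.4 and 0.175 RPKM in WT PP, which overlap. The part of these differences in the PP values of Rars, Sars2, Mthfd2 and the other genes was not tested.

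In LP, no overlap was seen for 3 of 20 cytosolic genes, 1 higher and 2 lower in libraries labelled KO, and 3 of 14 mitochondrial genes kept, all lower. Over all genes kept, 35.6% had no overlap, 15.3% higher and 20.3% lower. Mars, the methionyl enzyme, was at 30.4 and 50.2 RPKM in LP labelled KO and at 7.41 and 26.0 RPKM in WT LP, a log2 difference of 1.41 (SE 0.76, limma adjusted p = 1). Mars overlaps Ddit3 by 68 bases on the opposite strand. Dars was at 11.8 and 2.01 RPKM in LP labelled KO and at 13.03 and 15.2 RPKM in WT LP, a log2 difference of -1.28 (SE 1.67, limma adjusted p = 1). Fars2, the mitochondrial phenylalanyl enzyme, was at 16.1 and 12.5 RPKM in LP labelled KO and at 26.7 and 42.4 RPKM in WT LP, a log2 difference of -1.19 (SE 1.70, limma adjusted p = 1). In PP, Fars2 was at 43.6 and 0.117 RPKM in libraries labelled KO and at 0.0845 and 0.212 RPKM in WT libraries, which overlap.

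The median log2 difference of the cytosolic list was 0.22 in PP, where it was 0.36 for the mitochondrial list and 0.16 over all genes. In LP it was 0.11 for the cytosolic list, -0.18 for the mitochondrial list and -0.06 over all genes. Differences were above 0 in PP for 12 of 20 cytosolic genes, 8 of 14 mitochondrial genes and 57.0% of all genes. In LP they were above 0 for 15 of 20 cytosolic genes, 5 of 14 mitochondrial genes and 46.4% of all genes. Under median-of-ratios scaling, which moved the median of all genes in PP to -0.07, the medians in PP were -0.34 for the cytosolic and -0.02 for the mitochondrial list, so the sign in PP depends on the scaling.

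The genes of the amino acid response and of amino acid uptake were then read beside the synthetases. The lists were chosen with results of these data known, so their counts and p-values between tissues are given as descriptions only. Of 26 kept genes of the ATF4 and amino acid response list, 5 were higher in LP than PP and 0 lower (limma, adjusted p under 0.05), where 2.30% of all genes were higher and 2.03% lower. The 5 were Atf3, Ppp1r15a, Atf4, Cebpb and Ddit3, which are stress-response regulators and not enzymes of amino acid synthesis. The count was 2 when any 1 of the 4 LP libraries was left out and 3 without the first PP library labelled KO. The list had a median log2 difference of 1.21, with 20 of 26 genes above 0.

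Atf4, the factor at the centre of the response, was at 231 and 270.5 RPKM in LP labelled KO and 380.02 and 416 RPKM in WT LP, against 8.83 and 80.5 RPKM in PP labelled KO and 35.5 and 93.9 RPKM in WT PP. The tissues did not overlap, with a log2 difference of 2.95 (SE 0.60, limma adjusted p = 0.0216). Atf3, which encodes an ATF family factor, was at 633 and 501 RPKM in LP labelled KO and 1083 and 825 RPKM in WT LP, against 3.20 and 4.45 RPKM in PP labelled KO and 22.5 and 27.9 RPKM in WT PP. Its log2 difference was 6.03 (SE 0.43, limma adjusted p = 5.73e-05), and its LP libraries were also far above its PP libraries. Ddit3, which encodes CHOP and has a limma adjusted p of 0.0412, averaged 245 ± 66.2 RPKM in LP and 23.6 ± 27.3 RPKM in PP (SD, n = 4 each). Asns, the asparagine synthetase and a known ATF4 target, averaged 17.9 ± 16.2 RPKM in LP and 13.7 ± 17.3 RPKM in PP (SD, n = 4 each), and was picked after its values were seen as a target whose tissues overlap.

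Of 8 kept amino acid transporter genes, 3 were higher in LP and 0 lower by limma. Slc3a2, the heavy chain of several amino acid exchangers, was at 526 and 582 RPKM in LP labelled KO and 463 and 419 RPKM in WT LP, against 78.7 and 60.5 RPKM in PP labelled KO and 122 and 31.8 RPKM in WT PP. Its log2 difference was 2.89 (SE 0.39, limma adjusted p = 0.00242), with no overlap. Slc38a2, a transporter of small neutral amino acids, averaged 124 ± 61.1 RPKM in LP and 20.7 ± 20.2 RPKM in PP, and Slc16a10, a transporter of aromatic amino acids, averaged 41.2 ± 18.6 RPKM in LP and 1.98 ± 2.11 RPKM in PP (SD, n = 4 each). Without the second LP library labelled KO, or without either WT LP library, 1 transporter passed.

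**Figure D5:**
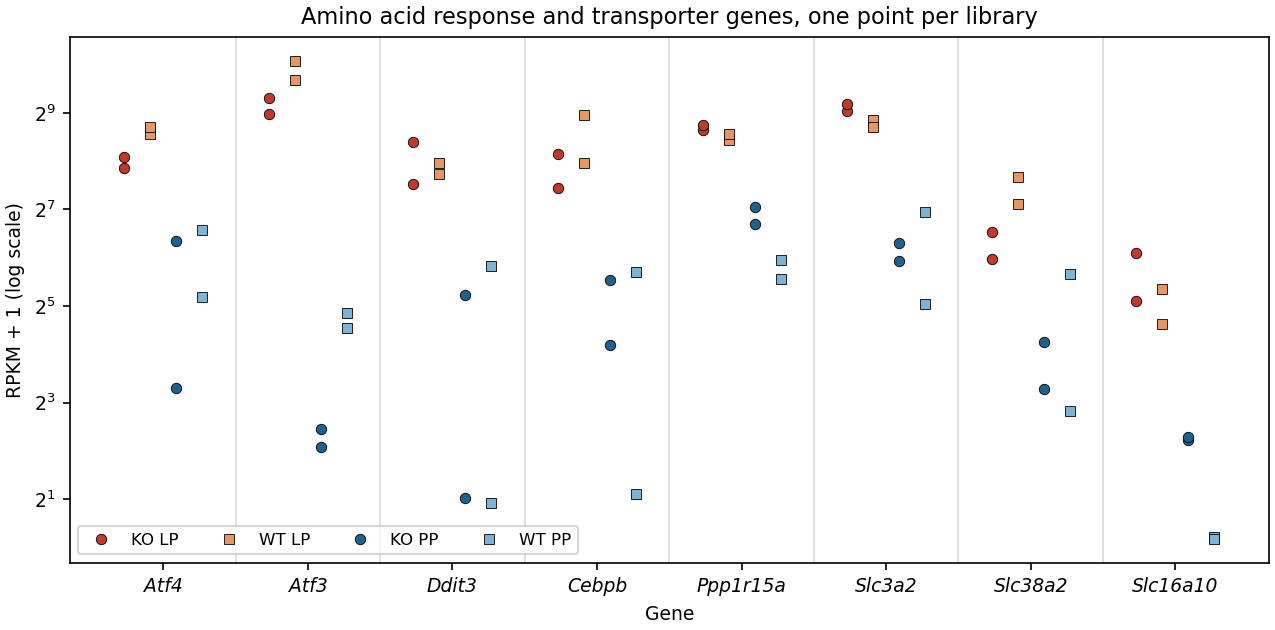
RPKM + 1 on a log axis for 5 genes of the amino acid response list and 3 transporter genes (x axis), 1 point per library, with LP left of PP and libraries labelled KO (circles) left of WT libraries (squares). In each of the 8 genes the 4 LP points lie above the 4 PP points. These are the genes of the 2 lists that passed as higher in LP, so nothing is read from this separation.

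Of 17 kept genes of the complex scaffold and of tRNA partners, 1 was lower in LP and 0 higher by limma. This was Mto1 (limma adjusted p = 0.0131), an enzyme that modifies mitochondrial tRNAs, at 0.161 and 0.226 RPKM in LP labelled KO and 0.176 and 0.205 RPKM in WT LP, against 20.1 and 17.4 RPKM in PP labelled KO and 119 and 40.4 RPKM in WT PP. Of 13 translation elongation factor genes, 0 passed in either direction between tissues, with a median log2 difference of -0.46. The B and plasma cell marker sums given above moved with the same tissue contrast. T cell markers moved the other way, with sums of 348 to 644 RPKM in LP and 937 to 1213 RPKM in PP, which do not overlap. Of 13 T cell genes, 5 to 8 reached 1 RPKM in LP libraries and 6 to 9 in PP libraries. Foxp3 was listed at 0 in all 8, while Cd4, Trbc1, Trbc2 and Lat reached 1 RPKM in all 8. Cd4 is also in the list of LTi genes, so the T cell sum is not of T cell genes alone. The median log2 difference of the 11 kept T cell genes was -1.13, with 1 of 11 above 0. Stromal and endothelial markers summed to 28.1 to 64.5 RPKM in LP and 78.5 to 205 RPKM in PP, with 2 to 3 of 13 genes at 1 RPKM. The part of these marker differences in the tissue values of the synthetase, response and transporter genes was not tested.

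Between genotypes, 1 gene of these 4 lists passed. Mthfd2, a mitochondrial enzyme of folate metabolism and a known ATF4 target, was at 0.425 and 0.336 RPKM in PP labelled KO and at 54.9 and 40.2 RPKM in WT PP. It was lower in both libraries labelled KO, with a log2 difference of -5.12 (SE 0.69, limma adjusted p = 0.0427). The adjusted p was between 0.0223 and 0.357 over 16 alternatives and above 0.05 in 11 of them, including when any 1 library was left out. In LP, Mthfd2 was at 35.9 and 57.5 RPKM in libraries labelled KO and at 65.0 and 89.7 RPKM in WT libraries (limma adjusted p = 1). Among scaffold and tRNA partner genes, Gatc, which encodes a subunit of the mitochondrial amidotransferase that makes glutaminyl-tRNA, had the smallest unadjusted p in PP. There it was at 5.83 and 42.6 RPKM in libraries labelled KO and 0.0722 and 0.0761 RPKM in WT libraries (limma adjusted p = 0.254). In LP, Gatc went the other way, at 0.0669 and 0.0430 RPKM in libraries labelled KO and 21.0 and 9.13 RPKM in WT libraries (limma adjusted p = 0.669).

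The promoters of 27 of the 36 genes, 28 in all, were matched in RefSeq for GRCm38.p6, from 250 bases before to 50 after the start. They were searched on both strands for TGATGNAA, the core of the site known for ATF4 with C/EBP factors. It lay in 5 of 28 member promoters (17.9%), 5 of 13 cytosolic and 0 of 15 mitochondrial ones, and in 1304 of 32851 promoters in all (3.97%). The 30 bases around 1 copy in each of these promoters are shown because the letters match a known kind of amino acid response site. The motif or its reverse complement is in capitals. Genes without a matched promoter were not searched.
Aars, chr8:111033840-111033869, plus strand: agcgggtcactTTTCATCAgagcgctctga
Iars, chr13:49682126-49682155, plus strand: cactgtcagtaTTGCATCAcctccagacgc
Tars, chr15:11399655-11399684, minus strand: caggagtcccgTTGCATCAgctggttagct
Gars, chr6:55037960-55037989, plus strand: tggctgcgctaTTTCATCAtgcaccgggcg
Yars, chr4:129189895-129189924, plus strand: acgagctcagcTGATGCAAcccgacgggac
These 5 genes did not share a tissue difference. The average log2 difference between LP and PP was 2.71 for Aars, 0.23 for Iars, 0.16 for Tars, -0.03 for Yars and -0.61 for Gars. The letters TGATGNAA were not found in the Eprs window, which says nothing of the factor. CACGTG lay in the promoters of Farsb, Ears2, Aars, Iars and Tars, 5 of 28 (17.9%), and in 7.15% of all promoters. A match is a description of letters, not of binding.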

How the data were processed

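Sorted LTi cells gave 8 RNA libraries, which the labels put into 4 groups of 2. Libraries were prepared by Smart-seq2 from total RNA isolated on miRNeasy Micro columns, per the labels' protocols. The authors deposited log2(RPKM + 1) for each gene and wrote 0.0001 for 0. The submitters' processing notes name featureCounts, Subread and mm10. The sources used here do not name the aligner, the annotation release, any version or the use of strand. The log base was checked on the sum of RPKM times gene length in each library, which should be near 1 on the scale of the library size and came to 1.38 to 1.55 with log2 and 16.3 to 21.5 with a natural logarithm. The depth was estimated from genes whose value is that of 1 read, with quartiles of 20.2 to 42.3 M over genes and libraries. No column was left without a sample.

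RPKM was restored from the log2 values. A gene was kept where 2 or more of the 8 libraries reached 1 RPKM (10541 of 27179), and log2(RPKM + 1) was modelled in limma 3.58.1 under R 4.3.3, with eBayes and its trend option. A fit of 4 group means (4 residual degrees of freedom) gave the genotype effects and their difference, and an additive fit (5 residual degrees of freedom) the average effects, taking the libraries as independent. Tests were two-sided with a Benjamini-Hochberg threshold of 0.05 over all genes kept. The smallest two-sided permutation p of 2 against 2 libraries is 0.333, so none was run. The code was tested on simulated data. Symbols and promoters came from RefSeq (GRCm38.p6, 25275 identifiers matched) and positions from GENCODE vM21, both for the assembly of mm10.

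The members and the lists (complex and tRNA partners, elongation factors, amino acid response, transporters, cell type markers) were chosen with earlier results of these data known. Values in every library are printed for Eprs, the 5 members and the 5 mitochondrial members with the highest mean, and the 3 members with the largest difference among those without overlap in each genotype comparison and between tissues, where the higher group averaged 5 RPKM or more. Up to 4 passing genes of each other list are named, or up to 3 with the smallest p, and other genes were named after their values were seen. Alternatives were other pseudocounts, filters, scalings and groups in the fit, a replicate block and leaving out each library. Same-numbered libraries were checked for pairing, and their deviations correlated at -0.021 to 0.010. Many genes were found in only 1 library of a group, so this check cannot settle whether same-numbered libraries came from the same animals. The values of 2 marker genes and 1 promoter window are not reported here.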

Additional observations from a re-analysis of the deposited data

Results flagged for a closer look

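Farsb, a subunit of the cytosolic phenylalanyl enzyme, was at 12.8 and 6.11 RPKM in LP labelled KO and at 16.3 and 27.2 RPKM in WT LP, and at 36.9 and 0.152 RPKM in PP labelled KO and 0.120 and 0.127 RPKM in WT PP. Its libraries labelled KO were both below the WT libraries in LP and both above them in PP. The effect of the KO label in LP less its effect in PP was -3.71 on the log2 scale (SE 2.38), and the limma test of this difference had an adjusted p of 0.725. The difference ranged between -6.23 and -1.19 when single libraries were left out. In PP the direction rests on 1 library, since the other 3 did not exceed 0.152 RPKM.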

How the results depend on the processing

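The count of synthetase genes passing was 0 under every alternative run for the genotype effect in PP and in LP, the average genotype effect and the difference between tissues, including the replicate block. With the replicate number as a block, the count of amino acid response genes higher in LP was 4, against 5, and that of transporter genes stayed at 3. The response count was 2 with no filter and 3 with a pseudocount of 0.1. Leaving out 1 library gave 2 to 4 response genes and 1 to 3 transporter genes. The median genotype effect of cytosolic genes in PP was -0.337 under median-of-ratios scaling, against 0.219. Their median difference between the genotype effects in LP and PP was 1.22 under that scaling and -0.299 to 0.616 with 1 library left out, against 0.449. The tissue difference of Eprs was 4.66 with a pseudocount of 5 and 4.83 to 5.12 with 1 library left out. The adjusted p of Rars in PP lay between 0.0862 and 0.357 over 16 alternatives. Where a value moved, the cause was not tested. With 2 libraries a group and many members found in only 1 of 2, the spread between libraries limits what these tests can show.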
